A study of Mus musculus with 54 samples.

Results

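The 40 genes described here act in mitosis and at the passage from G2 into M phase, and their transcripts were followed in cultured mouse microglia that took up alpha-synuclein (aSyn) and were then mixed with cells that had not. Members were chosen by gene symbol, as cyclins and kinases of mitotic entry, kinetochore, spindle and cytokinesis genes. All 40 were among the 16632 genes listed, and all 40 passed the filter on low counts that left 13169 genes for testing. Every library came from primary microglia of neonatal C57BL/6 mice, pooled over brains, grown over an astrocyte layer with L929 cell supernatant and shaken off it. Untreated_Ctrl cells received no aSyn (6 libraries from 4 experiments, with same-numbered libraries summed to 4). The aSyn_Donor cells received 1 µM Atto-488-labelled aSyn for 14 h without co-culture (4 libraries). Donors received the same aSyn and acceptors received CellTracer Violet in its place. Donors and acceptors were mixed and sorted apart again by flow cytometry after 15, 30, 60, 150 or 300 min, and groups labelled 0 min were also given. Each of these 12 groups held 3 or 4 libraries. Whether untreated and aSyn_Donor cells passed through the sorter is not stated. The replicate number is read as the experiment, and nothing in the labels says that experiments used separate animals, so p-values measure the spread between these samples, which may in part be technical.

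Cells enter mitosis when cyclin A and cyclin B activate the kinase Cdk1, and polo-like and Aurora kinases then build the spindle. The spindle checkpoint holds the anaphase promoting complex, a ubiquitin ligase, until all kinetochores are attached, after which cyclin B and securin are destroyed and the cell divides. Most genes of this programme are transcribed in late S, G2 and M phase under the DREAM complex, B-Myb and FoxM1, so their RNA marks cycling cells. Resting microglia of the adult brain divide rarely, while microglia of neonatal cultures divide in response to growth factors such as Csf1.

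Library totals lay between 7807389 and 15537493 counts. Levels are given as CPM, a gene's count per fixed number of counts in a library, on library sizes scaled by TMM, edgeR's normalization, and differences as log2 fold changes. Genes were tested with the edgeR quasi-likelihood test and called at a Benjamini-Hochberg adjusted p under 0.05 over all 13169 genes, once without and once with the experiment as a block. Experiment 4 carries its own range of facility numbers, and the ribosomal RNA precursor Rn45s took 18.2% of its counts against 6.602% in the others. Of 10 microglia markers, Siglech was at 0 in all but 1 of the untreated and aSyn_Donor units. The summed level of the 10 was 3620 to 4975 CPM in untreated cells and 1785 to 4508 CPM in aSyn_Donor cells, where experiment 4 was the lowest.

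Mitotic genes stood lower in aSyn_Donor cells than in untreated cells of the same experiment, in all 4 experiments and to very different depths. The 40 genes together gave 1214, 656, 792 and 971 CPM in untreated cells of experiments 1 to 4. In aSyn_Donor cells they gave 854, 369, 358 and 304 CPM. The sum in aSyn_Donor cells was 50.8% ± 16.6 (SD, n = 4) of that in untreated cells. The levels of the groups overlap, because aSyn_Donor cells of experiment 1 stood above the untreated cells of experiments 2 and 3. Paired within experiments, 38, 37, 39 and 38 of the 40 genes were lower, with median log2 differences of -0.59, -0.73, -1.53 and -3.17. For 35 genes the aSyn_Donor value was lower in every experiment, against 16.7% of all tested genes. In bulk RNA, fewer dividing cells and less of these RNAs per dividing cell cannot be told apart.

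Without the block the edgeR test called 0 of the 40 members at an adjusted p under 0.05, while it called 2.5% of all tested genes, 0.896% lower. All 40 log2 fold changes were below 0 in that fit, with a median of -1.27 against -0.04 over all genes. In the same fit 14 members had an unadjusted edgeR p under 0.05. Shares of all tested genes under that unadjusted p are not given here. This count and later ones of its kind thus have no background beside them. DESeq2 called 1 member, the kinetochore gene Spc25, and 4.96% of the genes it tested. With the experiment as a block, edgeR called 36 of 40 members, all lower, and 19.2% of all tested genes, 10.2% lower and 8.95% higher. The median member log2 fold change was then -1.60 against -0.05 over all genes. Pttg1, Incenp, Cenpa and Kif20a were not called. The counts depended on the experiments. Of the 36 members called with the block, 15 kept the call whichever experiment was left out. These were Aurkb, Bub1, Ccna2, Cdc20, Cdca8, Cdk1, Cenpf, Ckap2, Mki67, Plk1, Prc1, Racgap1, Spc25, Top2a and Tpx2. Every other call with the block was lost in at least 1 of those 4 fits. With the block, 19 members were called without experiment 3 and 24 without experiment 4, where the median was -0.95, and without the block 9 were called when experiment 1 was left out. No member had groups that did not overlap, against 3.6% of all tested genes that were lower without overlap.

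**Figure D1:**
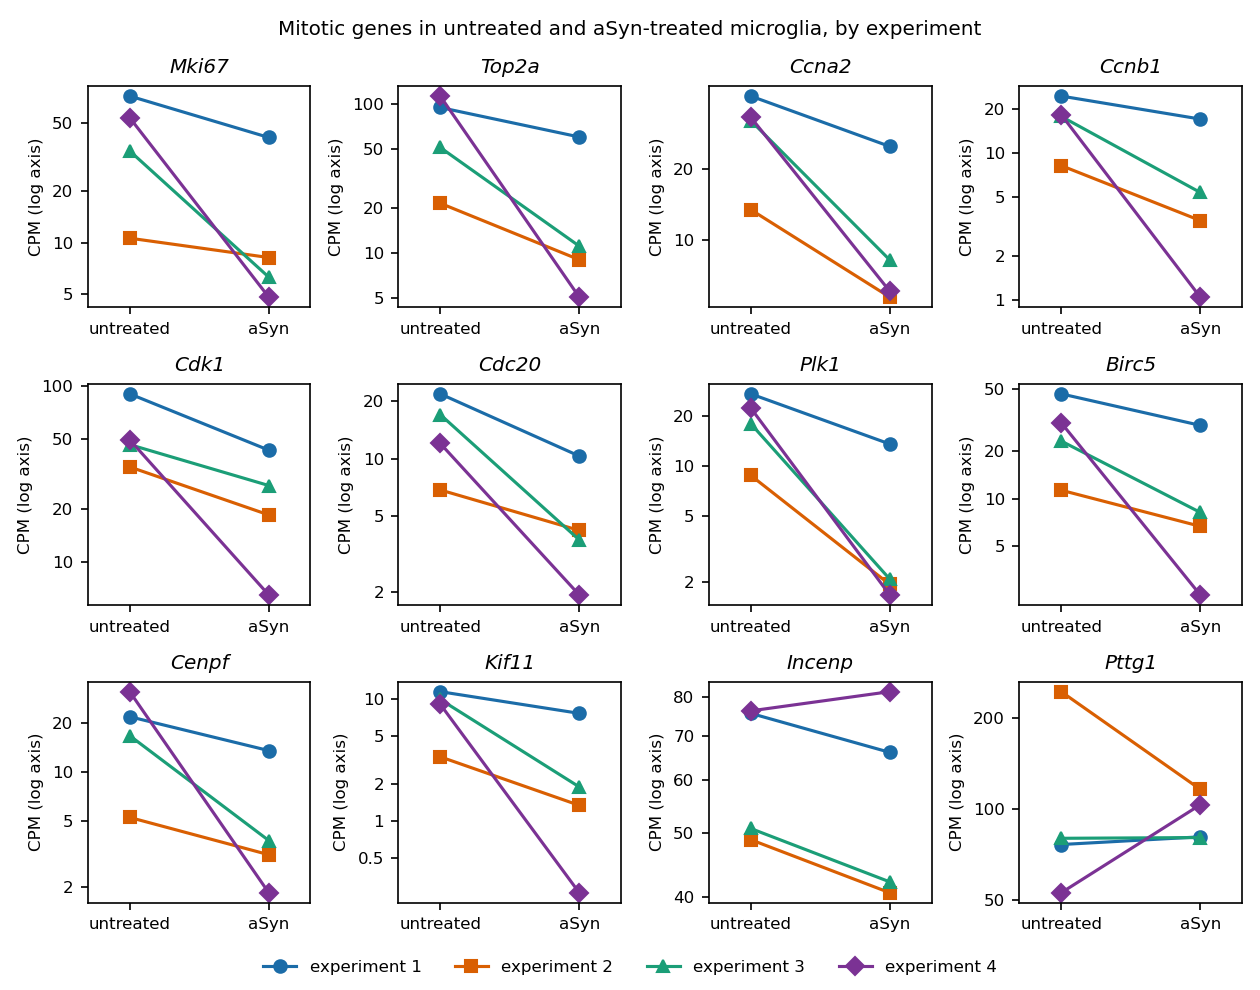
Levels in CPM (log axis, its range differing between panels) of 12 mitotic genes in untreated and aSyn_Donor cells, with 1 line for each experiment joining its 2 values. Lines go down in all 4 experiments for the first 10 genes, most steeply in experiment 4, while Incenp stays near its untreated level and Pttg1 is lower in experiment 2 only.

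The proliferation marker gene Mki67, whose product coats mitotic chromosomes, stood at 71.5, 10.6, 34.2 and 53.4 CPM in untreated cells of experiments 1 to 4 and at 41.0, 8.17, 6.28 and 4.80 CPM in aSyn_Donor cells. Its mean went from 42.4 ± 26.1 to 15.1 ± 17.3 CPM (SD, n = 4 each). The blocked edgeR fit gave a log2 fold change of -1.82 (SE 0.36, adjusted p 0.000423), and the fit without the block -1.49 (SE 0.78, edgeR adjusted p 0.32). Top2a, the topoisomerase that untangles sister chromatids, stood at 94.7, 21.6, 51.1 and 113 CPM in untreated cells and at 60.1, 9.03, 11.1 and 5.06 CPM in aSyn_Donor cells. The lowest aSyn_Donor value thus came from the experiment with the highest untreated value. Top2a fell by 2.21 on the log2 scale in the blocked fit (SE 0.47, edgeR adjusted p 0.000791).

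All 4 genes of the mitotic cyclins and their kinase were called lower in the blocked fit and none without the block. Ccna2, the cyclin of S and G2 phase, had the smallest p of the 40. It stood at 41.0, 13.4, 32.2 and 33.3 CPM in untreated cells and at 24.98, 5.69, 8.19 and 6.02 CPM in aSyn_Donor cells. The blocked log2 fold change was -1.61 (SE 0.26, adjusted p 2.63e-05 by edgeR), a level 3.05-fold lower. Ccnb1, which with Cdk1 drives entry into mitosis, stood at 24.5, 8.24, 17.8 and 18.3 CPM in untreated cells and at 17.1, 3.48, 5.41 and 1.05 CPM (12 counts) in aSyn_Donor cells. Its partner cyclin Ccnb2 went from 28.2, 6.72, 12.1 and 15.5 CPM to 20.3, 3.41, 4.45 and 2.27 CPM. Both B cyclins were called with the block (edgeR adjusted p 0.0054 and 0.0162), and both have a processed copy in the annotation, Ccnb1-ps and Ccnb2-ps, so their counts are uncertain. Cdk1, the kinase itself, stood at 89.7, 34.5, 46.2 and 49.2 CPM in untreated cells and at 43.0, 18.4, 27.0 and 6.46 CPM in aSyn_Donor cells. Its blocked log2 fold change was -1.39 (SE 0.26, adjusted p 0.000186 by edgeR), and aSyn_Donor cells of experiment 4 stood apart below the others.

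Of 4 genes of the anaphase promoting complex and its substrates, 3 were called lower in the blocked fit. Cdc20, the activator of the complex, stood at 21.9, 6.85, 17.1 and 12.03 CPM in untreated cells and at 10.3, 4.19, 3.74 and 1.92 CPM in aSyn_Donor cells (blocked log2 fold change -1.69, SE 0.33, edgeR adjusted p 0.000312). Ube2c, its ubiquitin-conjugating enzyme, went from 31.5, 13.1, 28.3 and 19.4 CPM to 25.3, 3.84, 7.55 and 1.05 CPM. Ube2c was called at an edgeR adjusted p of 0.0113 and lost that call without experiment 2 or 3. Cdca3, a trigger of mitotic entry that the complex destroys, was 2.77-fold lower (edgeR adjusted p 0.0147) in the blocked fit. Pttg1, the securin that holds separase inactive, did not follow the rest. It stood at 76.1, 243.7, 79.8 and 52.7 CPM in untreated cells and at 80.7, 116, 80.2 and 103 CPM in aSyn_Donor cells. The blocked log2 fold change was -0.05 (SE 0.21, adjusted p 0.892 by edgeR). Its sign rests on untreated cells of experiment 2, since without that experiment it was 0.41. Summed without Pttg1, the other 39 genes gave 1138, 412, 712 and 918 CPM in untreated cells and 774, 253.2, 278 and 201 CPM in aSyn_Donor cells.

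Among the 7 mitotic kinases and checkpoint genes, all 7 were called lower with the block. Plk1, the polo-like kinase of mitotic entry and spindle assembly, had the largest log2 fold change of the 40, -2.56 (SE 0.45, edgeR adjusted p 9.52e-05). Its untreated values were 27.2, 8.77, 18.0 and 22.4 CPM and its aSyn_Donor values 13.6, 1.92, 2.07 and 1.66 CPM. Experiment 1 stands apart among the latter and lies within the untreated range. Aurka, the Aurora kinase of the spindle poles, went from 15.9, 5.84, 12.8 and 11.2 CPM to 13.2, 5.05, 5.09 and 4.89 CPM, a smaller difference (blocked log2 fold change -0.80, SE 0.22, edgeR adjusted p 0.0104). Bub1b, the checkpoint protein BubR1, went from 15.9, 6.72, 9.26 and 8.52 CPM to 13.7, 3.98, 3.10 and 2.09 CPM. Ttk, the kinase that starts the checkpoint, went from 7.37, 1.44, 3.94 and 11.2 CPM to 2.87, 0.995, 1.75 and 0.698 CPM. Blocked log2 fold changes were -1.09 for Bub1b (edgeR adjusted p 0.00338) and -1.94 for Ttk (edgeR adjusted p 0.0056). The other 3 members, Bub1, Mad2l1 and Melk, had blocked log2 fold changes between -1.84 and -1.02.

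The chromosomal passenger complex holds the kinase Aurkb together with Incenp, Birc5 and Cdca8, and its 4 genes did not move as a unit. Aurkb stood at 10.3, 5.63, 10.2 and 9.46 CPM in untreated cells and at 9.14, 1.92, 2.15 and 0.175 CPM in aSyn_Donor cells, the last being 2 counts. Birc5, the subunit survivin, went from 46.5, 11.3, 23.3 and 30.5 CPM to 29.3, 6.68, 8.19 and 2.44 CPM. Both were called with the block, at edgeR adjusted p 0.00344 and 0.00563, and Cdca8, the subunit borealin, was 1.98-fold lower (edgeR adjusted p 0.00109). Incenp, the scaffold that binds Aurkb, stood at 75.7, 48.8, 50.7 and 76.3 CPM in untreated cells and at 66.1, 40.6, 42.1 and 81.6 CPM in aSyn_Donor cells. Its blocked log2 fold change was -0.15 (SE 0.13, adjusted p 0.438 by edgeR). The kinase's value was thus lower in all 4 experiments and the scaffold's in 3. In proportion, both fell by a similar small amount in experiment 1, and the scaffold fell by less in experiments 2 and 3.

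Of 7 kinetochore and centromere genes, 6 were called lower in the blocked fit. Cenpf, a kinetochore protein of G2 and M phase, stood at 21.7, 5.28, 16.6 and 30.8 CPM in untreated cells and at 13.5, 3.13, 3.82 and 1.83 CPM in aSyn_Donor cells. Ndc80, which grips the microtubule, went from 19.4, 4.58, 9.68 and 10.6 CPM to 10.2, 2.06, 2.62 and 0.960 CPM. Both kept the direction in every experiment, with blocked log2 fold changes of -1.97 (edgeR adjusted p 0.000923) and -1.76 (edgeR adjusted p 0.00403). Its partners in the same complex, Nuf2 and Spc25, were 3.56-fold and 2.73-fold lower (edgeR adjusted p 0.0061 and 0.000433). The histone H3 variant gene Cenpa, which marks the centromere, stood at 41.8, 15.7, 18.0 and 22.8 CPM in untreated cells and at 44.9, 17.0, 15.2 and 1.40 CPM in aSyn_Donor cells. It was far lower in experiment 4 alone, and without that experiment the blocked log2 fold change was 0.02. With all 4 experiments it was -0.50 (SE 0.59, edgeR adjusted p 0.595).

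All 6 spindle genes were called lower with the block. Kif11, the kinesin that pushes spindle poles apart, stood at 11.4, 3.36, 9.86 and 9.01 CPM in untreated cells and at 7.59, 1.35, 1.91 and 0.262 CPM (3 counts) in aSyn_Donor cells. Nusap1, a microtubule bundler, went from 20.4, 4.19, 10.5 and 24.4 CPM to 15.8, 3.198, 3.42 and 0.524 CPM. Their blocked log2 fold changes were -2.05 (edgeR adjusted p 0.00421) and -1.83 (edgeR adjusted p 0.024). Tpx2, which activates Aurka on the spindle, showed another pattern. Its untreated level was highest in experiment 2, at 29.4, 55.1, 22.6 and 25.8 CPM, where most members were lowest. In aSyn_Donor cells Tpx2 stood at 24.8, 24.1, 13.3 and 16.0 CPM (blocked log2 fold change -0.74, SE 0.16, edgeR adjusted p 0.000942).

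Of the 6 cytokinesis genes, 5 were called lower in the blocked fit. Prc1, which bundles the central spindle, went from 32.2, 9.77, 18.9 and 26.4 CPM in untreated cells to 21.9, 4.83, 6.28 and 2.62 CPM. Anln, an anchor of the contractile ring, went from 8.28, 1.66, 8.14 and 7.01 CPM to 4.27, 0.995, 1.35 and 0.698 CPM. Racgap1, of the centralspindlin complex, went from 40.1, 8.98, 27.4 and 27.2 CPM to 27.6, 7.68, 10.2 and 4.45 CPM. Blocked log2 fold changes were -1.62 for Prc1 (edgeR adjusted p 0.000354), -2.03 for Anln (edgeR adjusted p 0.0018) and -1.19 for Racgap1 (edgeR adjusted p 0.00064). Kif20a, a kinesin of the cleavage furrow, was not called (blocked log2 fold change -0.48, SE 0.24, edgeR adjusted p 0.163) and was higher in aSyn_Donor cells of experiment 2, at 12.1 against 7.81 CPM.

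**Figure D2:**
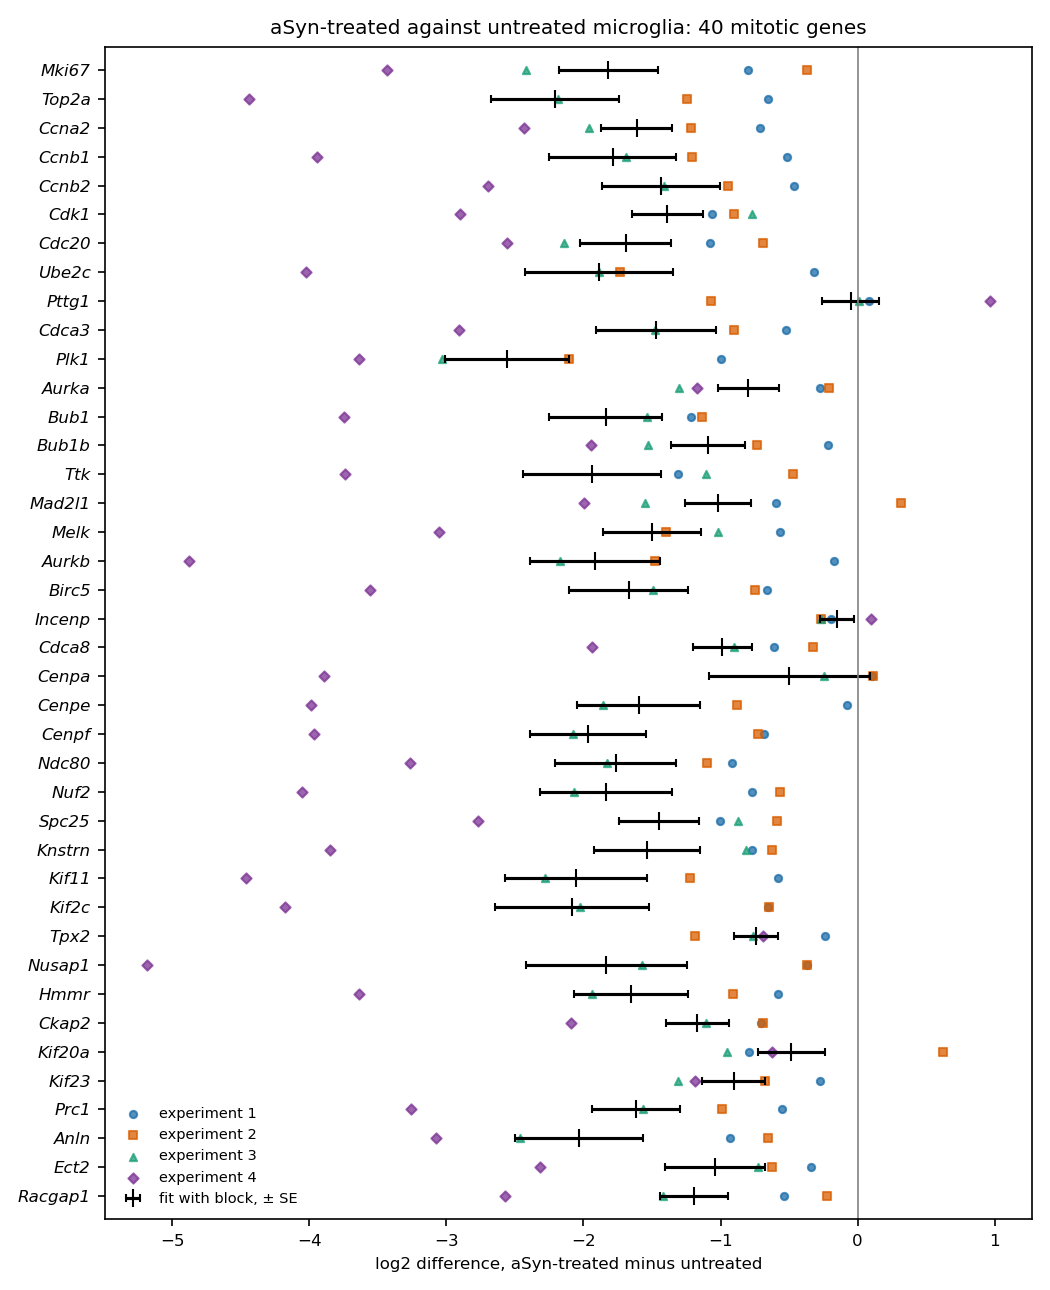
Log2 difference of aSyn_Donor minus untreated cells for each of the 40 genes (rows), with 1 symbol per experiment and, in black, the fold change of the fit with the experiment as a block ± SE. Values of experiment 4 lie farthest left for most genes, and the black marks of all but Pttg1, Incenp, Cenpa and Kif20a lie at or below -0.74.

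Some counts may hold reads of a neighbour. For 10 members an exon overlaps that of another annotated gene, for 9 of them on the opposite strand, and whether counting used strand is not given in the sources used here. Of the partners, 5 were tested, and Oip5, opposite Nusap1, was lower too (blocked log2 fold change -1.98, edgeR adjusted p 0.00835), so reads of that pair cannot be told apart. Opposite Cdc20, Elovl1 was higher by 0.39 (edgeR adjusted p 0.00208), the other direction from Cdc20.

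RNA of other cell types differed along with the mitotic genes. Summed over 8 genes, astrocyte markers stood at 11.3, 18.8, 77.6 and 139 CPM in untreated cells of experiments 1 to 4 and at 13.9, 11.2, 16.7 and 29.3 CPM in aSyn_Donor cells. The 6 neural progenitor markers gave 79.02, 71.001, 203 and 187 CPM against 50.4, 30.9, 41.3 and 38.1 CPM. For the 8 markers of the oligodendrocyte lineage the sums were 201, 118, 589 and 215 CPM against 159, 118, 248.3 and 80.5 CPM. Of these markers, 5 of 8 astrocyte, 4 of 6 progenitor and 4 of 8 oligodendrocyte lineage genes were called lower with the block. Over all tested genes that fit called 10.2% lower and 8.95% higher. The neuron markers summed to 3.63, 4.01, 27.4 and 34.1 CPM in untreated cells and to 4.72, 1.71, 3.499 and 3.84 CPM in aSyn_Donor cells, and 1 of the 5 tested was called lower with the block. Fibroblast and vessel markers gave 1.82, 0.436, 10.4 and 20.4 CPM against 2.80, 2.70, 10.02 and 13.3 CPM, with 1 of 6 called higher. These sums stand beside each mitotic gene group above, and their part in the mitotic difference was not tested. The progenitor sum was lower in aSyn_Donor cells in all 4 experiments, the astrocyte sum in all but experiment 1 and the oligodendrocyte lineage sum in all but experiment 2. The astrocyte gene Aqp4 was at 0 in experiment 2 in both groups.

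**Figure D3:**
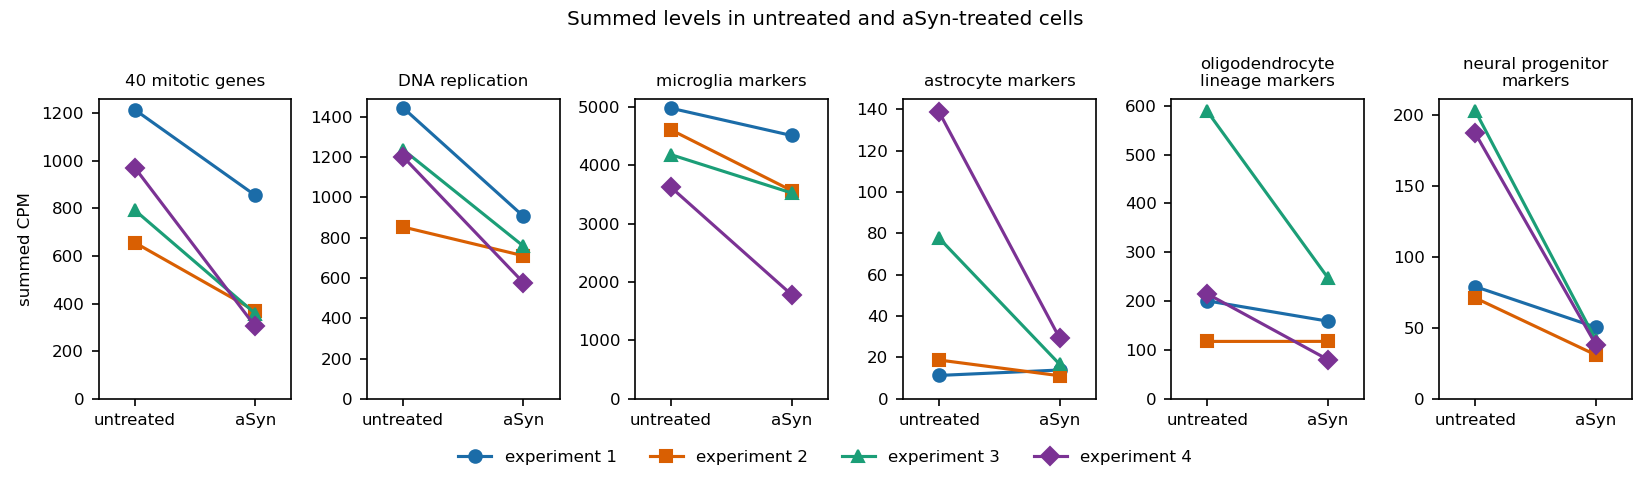
Summed CPM (linear axes from 0, ranges differing) of the 40 mitotic genes, 36 DNA replication genes and 4 marker lists in untreated and aSyn_Donor cells, 1 line per experiment. Astrocyte and progenitor sums start high only in untreated cells of experiments 3 and 4, the experiments with the largest mitotic differences.

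Promoters of members that differed together are shown because cell-cycle genes of this class often carry CCAAT boxes, bound by NF-Y, and a cell cycle homology region (CHR), bound by DREAM and MuvB complexes. Among 35 members found in the RefSeq table for GRCm38.p6, with windows from 250 bases before to 50 bases after each start, 25 (71.4%, 95% exact interval 53.7 to 85.4) held CCAAT on either strand. That compares with 43.2% of 10420 tested genes in the table and 37.4% of all 32851 promoters. A CHR, searched as TTTGAA or TTCGAA on either strand, occurred in 26 (74.3%) against 16.6% of tested genes and 19.2% of all promoters. Both occurred in 23 (65.7%) against 6.98% of tested genes and 7.53% of all promoters. Before the start alone, 11 of 35 held both (31.4%) against 5.87% of tested genes. The members were chosen for their role in mitosis, so these shares describe them and test nothing, and a match is no proof of a site. The 4 members with both motifs and the smallest blocked p are printed 5′ to 3′ on the gene's strand, ending at the start, with matches in capitals. Plk1 covers chr7:122159185-122159434 (plus strand), Cdk1 chr10:69352913-69353162 (minus), Cdc20 chr4:118437344-118437593 (minus) and Prc1 chr7:80294201-80294451 (plus).
Plk1: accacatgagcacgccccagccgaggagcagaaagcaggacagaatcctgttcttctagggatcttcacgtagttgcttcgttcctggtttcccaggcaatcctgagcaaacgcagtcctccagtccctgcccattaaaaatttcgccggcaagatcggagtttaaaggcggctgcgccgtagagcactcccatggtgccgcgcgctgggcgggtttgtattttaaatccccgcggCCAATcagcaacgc
Cdk1: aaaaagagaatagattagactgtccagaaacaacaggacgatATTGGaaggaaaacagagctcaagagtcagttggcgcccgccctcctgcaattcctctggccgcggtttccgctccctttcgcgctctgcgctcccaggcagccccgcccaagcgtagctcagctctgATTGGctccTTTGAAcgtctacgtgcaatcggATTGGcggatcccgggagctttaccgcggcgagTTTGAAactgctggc
Cdc20: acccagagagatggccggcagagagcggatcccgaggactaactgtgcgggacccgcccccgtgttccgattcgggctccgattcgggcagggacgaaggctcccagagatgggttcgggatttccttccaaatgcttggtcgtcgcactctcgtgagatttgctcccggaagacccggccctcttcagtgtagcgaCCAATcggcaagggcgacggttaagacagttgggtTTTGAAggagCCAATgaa
Prc1: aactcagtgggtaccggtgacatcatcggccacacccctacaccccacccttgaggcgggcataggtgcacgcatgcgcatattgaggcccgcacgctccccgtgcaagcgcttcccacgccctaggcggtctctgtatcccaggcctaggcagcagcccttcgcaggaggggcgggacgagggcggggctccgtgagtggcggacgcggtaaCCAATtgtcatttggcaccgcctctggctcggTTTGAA
Plk1 shows a single CCAAT 14 bases before its start, and its CHR begins 30 bases after the start, outside the printed stretch. In Cdk1 the CCAAT boxes read ATTGG, as they lie on the other strand, and 2 CHR matches lie 71 and 15 bases before the start. Cdc20 holds its CHR between CCAAT boxes 53 and 8 bases before the start. Prc1 has CCAAT 37 bases before the start and a CHR that runs to the start base.

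Regulators and neighbours of the mitotic programme were read from 5 further lists. Over all tested genes, the blocked aSyn_Donor fit called 10.2% lower and 8.95% higher, the background for each of these lists. Of 22 transcriptional regulators, 9 were called lower in the blocked aSyn_Donor fit and none higher. Foxm1, the transcription factor of G2 and M phase genes, went from 10.5 ± 5.06 to 3.71 ± 3.28 CPM (SD, n = 4 each; blocked log2 fold change -1.67, SE 0.34, edgeR adjusted p 0.000585). Mybl2, which encodes B-Myb, had a blocked log2 fold change of -1.31 (SE 0.38, adjusted p 0.0123 by edgeR). The atypical repressors E2f8 and E2f7 were lower as well, by -1.19 and -2.65 (edgeR adjusted p 0.00179 and 0.00981). Of 18 genes that control entry into mitosis, 7 were called lower, among them the phosphatase genes Cdc25b and Cdc25c with -1.28 and -3.09 (edgeR adjusted p 0.000214 and 0.00582). Wee1, the kinase that holds Cdk1 inactive, was not called (0.17, SE 0.19, edgeR adjusted p 0.573).

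Among 39 other mitotic structure genes, 28 were called lower with the block, and Tuba1b, a tubulin gene, was the only one also called without it (edgeR adjusted p 0.0261). Of 36 DNA replication and S phase genes, 24 were called lower. The replicative helicase subunits Mcm2, Mcm3 and Mcm4 were called in both fits, with log2 fold changes of -1.12, -1.12 and -1.16 without the block (edgeR adjusted p 0.0103, 0.00231 and 0.0109). The replication list as a whole had a median of -0.89 without the block and -0.95 with it. The CDK inhibitors and G1 cyclins split: of 20, 9 were lower and 4 higher with the block. Ccnd1, the cyclin of G1, went from 378 ± 154 to 60.1 ± 32.2 CPM (SD, n = 4 each; edgeR adjusted p 0.00899 without and 0.000186 with the block). The other 8 that were lower were the cyclin genes Ccnd2, Ccnd3 and Ccne2, the kinase genes Cdk2 and Cdk6, the CDK inhibitor genes Cdkn2c and Cdkn2d, and Trp53, which encodes p53. Cdkn2c went from 11.7 ± 3.94 to 4.72 ± 2.48 CPM (SD, n = 4 each; blocked log2 fold change -1.39, edgeR adjusted p 0.000477), and Cdkn2d and Trp53 had blocked estimates of -0.46 each (edgeR adjusted p 0.0251 and 0.0337). Gadd45b, Btg1, Cdkn1a and Gadd45a were the 4 that were higher, and Cdkn1a, which encodes p21, rose by 0.58 (SE 0.15, edgeR adjusted p 0.0051). Genes whose products restrain the cycle were thus called in both directions. None of the 4 that were higher was called without the block. The genes of this list beyond the 6 with the smallest p were named after their values were seen.

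In co-cultured donors the mitotic genes lay near the level of aSyn_Donor cells at every time. Their summed level in donors lay between 663 and 798 CPM in experiment 1, 346 and 427 CPM in experiment 2, 345 and 401 CPM in experiment 3 and 259.02 and 327 CPM in experiment 4. Against aSyn_Donor cells the edgeR test called 0 of 40 members at each of the 6 times, with and without the block, and DESeq2 called 0. No member had an unadjusted p under 0.05 without the block, and 1 had with the block, at 300 min. Of all tested genes, 0.0304% were called at 300 min without the block and 0.304% with it (0.281% lower and 0.0228% higher), and at the other times none. Without experiment 4 the blocked fit called 1 member at 300 min. Median member log2 fold changes without the block ran from -0.22 at 150 min to 0.11 at 0 min. Melk, a kinase of proliferating cells, had the highest estimate at 0, 15 and 60 min, up to 0.83 (SE 0.63). The highest at 30, 150 and 300 min were Bub1 (0.56, SE 0.81), Anln (0.35, SE 0.74) and Aurkb (0.42, SE 0.73). Ect2, the exchange factor that starts furrowing, was the lowest at 0, 15 and 30 min (-0.80, -0.77 and -0.70), followed by Nusap1 at 60 min (-0.50, SE 1.10) and Ccnb2 at 150 and 300 min (-0.71 and -1.001). None of these passed the test.

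Acceptors, which received no aSyn themselves, also had lower estimates than untreated cells, with 1 experiment against the others. This comparison shares its untreated cells with the aSyn_Donor comparison above, so the 2 are not independent. Median log2 fold changes without the block lay between -0.68 at 60 min and -0.38 at 300 min, and 38 or 39 of 40 members were below 0 at each time. The edgeR test without the block called 0 members at all 6 times, with 0 to 2 unadjusted p under 0.05, and DESeq2 called 0. With the block edgeR called 0, 1, 1, 2, 2 and 0 members at 0, 15, 30, 60, 150 and 300 min, all lower. Of all tested genes it called 0.995%, 2.25%, 3.6%, 4%, 4.78% and 0.623%. Those called lower were 0.607%, 1.18%, 2.04%, 2.07%, 2.47% and 0.311% of all tested genes. With 1 or 2 calls among 40 members, these counts are too small to set apart from the background. In experiment 2 only 10 to 15 of the 40 genes were lower in acceptors, with medians between 0.13 and 0.25. In the other experiments 33 to 40 genes were lower, with medians between -1.18 and -0.33. Whether experiment 2 differs from the others was not tested, and untreated cells of experiment 2 were the lowest of the 4 for 38 members. Markers of other cells differed here as well. At 30 min the astrocyte sum was 11.6, 15.4, 32.2 and 23.1 CPM in acceptors against 11.3, 18.8, 77.6 and 139 CPM in untreated cells. The progenitor sum was 52.7, 49.0, 122 and 61.5 CPM against 79.02, 71.001, 203 and 187 CPM, and the oligodendrocyte lineage sum 112, 108, 275 and 97.6 CPM against 201, 118, 589 and 215 CPM. With the block, 2 of 8 astrocyte, 2 of 6 progenitor and 2 of 8 oligodendrocyte lineage markers were called lower at that time. Their part in the estimates of the mitotic genes was not tested.

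The 2 genes called in acceptors were ones that deviate from the rest. Tpx2 was called at 15, 30, 60 and 150 min with blocked log2 fold changes of -0.74, -0.67, -0.68 and -0.68 (edgeR adjusted p 0.00876, 0.0147, 0.0108 and 0.00868). At 30 min its values were 21.9, 23.2, 17.5 and 17.7 CPM against 29.4, 55.1, 22.6 and 25.8 CPM in untreated cells, so that only the acceptors of experiment 2 exceeded the lowest untreated value. Incenp was called at 60 and 150 min (-0.48 and -0.56, edgeR adjusted p 0.0238 and 0.00707). At 150 min Incenp stood at 41.3, 31.6, 42.2 and 54.6 CPM against 75.7, 48.8, 50.7 and 76.3 CPM, lower in every experiment. At 0 min 1 member was called without experiment 4. The call at 15 min was lost without experiment 4 and that at 30 min without experiment 1 or 3. At 60 min both were lost without experiment 1 or 2 and 1 was left without experiment 3, and at 150 min 1 was left without experiment 1 or 2, while 3 were called at 60 min without experiment 4. The highest estimates without the block were those of Kif2c at 0 min, Kif20a at 15 and 30 min, Cenpa at 60 and 150 min and Cenpe at 300 min, between 0.00 and 0.17. The lowest were those of Kif11 at 0 and 150 min, Anln at 15 and 60 min, Ttk at 30 min and Plk1 at 300 min, between -1.19 and -0.81, and none passed the test.

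**Figure D4:**
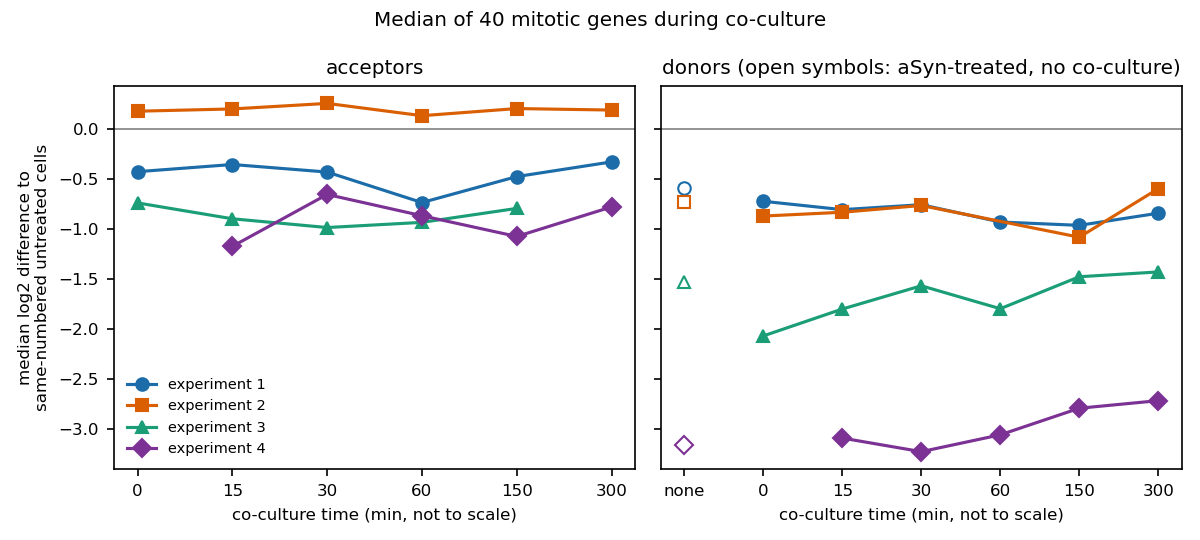
Median over 40 mitotic genes of the log2 difference to untreated cells of the same experiment, for acceptors (left) and donors (right, open symbols for aSyn_Donor cells) against co-culture time, 1 line per experiment. Donor lines stay near the open symbols, with experiments 1 and 2 at the top and experiment 4 between -3.23 and -2.72, and acceptors of experiment 2 lie above 0.

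Between donors and acceptors from the same co-culture, donors were the lower side. For 34 of 40 members every donor group mean lay below every acceptor group mean. The share of all tested genes with this order was not computed, so the count has no background beside it. Not every group holds all 4 experiments, and the donor groups come from the same experiments, so they are not independent. Without the block the edgeR test called 0 members at all 6 times, with 0 to 3 unadjusted p under 0.05, and DESeq2 called 0. With the block it called 1, 12, 17, 5, 7 and 3 members at 0, 15, 30, 60, 150 and 300 min, all lower in donors. Over all tested genes 4.28%, 9.57%, 10.8%, 6.7%, 5.19% and 1.38% were called, and 1.6%, 4.57%, 5.25%, 3.08%, 2.24% and 0.425% were lower. Blocked medians of the members were -0.84, -1.01, -1.08, -1.01, -1.05 and -0.97. Members lower in every experiment numbered 31, 31, 30, 26, 33 and 36, against 14.2% to 20.9% of all genes. The depth again followed the experiment: at 30 min the median paired difference was -0.25, -1.01, -0.50 and -2.53 in experiments 1 to 4.

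Ccna2 was called at all 6 times with the block, with log2 fold changes from -1.32 at 300 min to -1.10 at 150 min (edgeR adjusted p 0.00387 to 0.0218). At 15 min it stood at 21.3, 7.54, 5.75 and 5.47 CPM in donors and at 27.8, 15.9, 17.3 and 16.6 CPM in acceptors. The donors of experiment 1 exceeded the acceptors of experiments 2 to 4, and within each experiment donors were lower. Ckap2, a microtubule-stabilizing protein of the spindle, was called at 15, 30, 60, 150 and 300 min. Its values at 60 min were 6.99, 2.46 and 1.96 CPM in donors of experiments 1, 3 and 4 and 8.99, 6.48 and 5.18 CPM in the matching acceptors (blocked log2 fold change -1.17, SE 0.26, edgeR adjusted p 0.0044). Bub1, the checkpoint kinase that marks centromeres, was called at 15, 150 and 300 min. At 150 min it went from 12.02, 2.73, 3.52 and 5.53 CPM in acceptors to 5.69, 1.04, 1.04 and 0.365 CPM in donors (blocked log2 fold change -1.84, SE 0.42, edgeR adjusted p 0.00663).

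Among genes called at 15 min, Plk1 stood at 11.8, 1.62, 4.95 and 0.397 CPM in donors and at 18.9, 9.42, 12.3 and 7.24 CPM in acceptors (blocked log2 fold change -1.76, SE 0.45, edgeR adjusted p 0.0105). Bub1b, Cdc20, Prc1, Ttk, Mki67 and Top2a were also called then, with blocked log2 fold changes between -2.004 for Ttk and -1.04 for Bub1b. The largest count was at 30 min, led by Spc25. That gene stood at 11.4, 5.97, 6.40 and 3.61 CPM in donors and at 22.8, 12.3, 12.5 and 18.1 CPM in acceptors, without overlap (blocked log2 fold change -1.30, SE 0.29, edgeR adjusted p 0.00315). It was the only member without overlap at that time, as Kif20a was at 15 min, beside 2.52% and 2.73% of all genes. Kif20a, not called between aSyn_Donor and untreated cells, was called at 30 min with 18.3, 5.69, 7.46 and 5.33 CPM in donors and 21.9, 13.9, 14.3 and 20.3 CPM in acceptors (blocked log2 fold change -0.996, SE 0.25, edgeR adjusted p 0.00717). Cdca8, Cenpf, Ccnb1 and Top2a were called as well, with blocked log2 fold changes between -1.67 and -0.83. Incenp was the highest member at 15, 30, 60 and 150 min, between 0.12 and 0.41 without the block, and not called. Pttg1 was the highest at 0 and 300 min (0.31 and 0.05). The lowest members without the block were Kif2c at 0 and 150 min, Ttk at 15 min, Cenpf at 30 min, Nusap1 at 60 min and Bub1 at 300 min, between -1.80 and -1.30.

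These counts rest on few libraries. Without experiment 2 they became 2 at 15 min, 4 at 30 min, 3 at 60 min and 0 at 150 and 300 min, and without experiment 3 they became 2, 7, 0, 0 and 0. Without experiment 1 they were 4 at 150 min and 1 at 300 min. Without experiment 4 the count was 16 at 0 min, 4 at 30 min, 2 at 60 min and 1 at 300 min, and the call at 0 min was lost without experiment 2 or 3. Markers of other cells differed here too, at lower levels. At 30 min the progenitor markers summed to 44.4, 37.2, 53.5 and 17.6 CPM in donors and 52.7, 49.0, 122 and 61.5 CPM in acceptors. Astrocyte markers gave 17.5, 12.1, 22.4 and 12.3 CPM in donors and 11.6, 15.4, 32.2 and 23.1 CPM in acceptors. The microglia sum of experiment 4 was 1647 CPM in donors against 3181 CPM in acceptors. Their part in the mitotic difference was not tested.

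No member was called as changing over the co-culture times. In F tests over donors, over acceptors and over the donor-minus-acceptor difference, edgeR called 0 of 40 members with or without the block, no member had an unadjusted p under 0.05, and DESeq2 called 0. Over all genes at most 0.577% were called, for donors with the block. Among the 18 genes of mitotic entry, Wee1 alone was called over time in donors in both fits (edgeR adjusted p 0.00538 without and 4.35e-06 with the block). Donors exceeded acceptors in Wee1 by 1.62 on the log2 scale at 15 min and 1.09 at 30 min without the block (edgeR adjusted p 0.000691 and 0.0311), and at 300 min donors were below aSyn_Donor cells, at -1.47 (adjusted p 0.0166 by edgeR). In acceptors at 15 min Wee1 was below untreated cells in the blocked fit (-1.22, edgeR adjusted p 0.000517). Gadd45b, a stress-induced growth restraint, was higher in donors than in acceptors at all 6 times with the block, by 1.08 to 1.52, and at none without it.

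**Figure D5:**
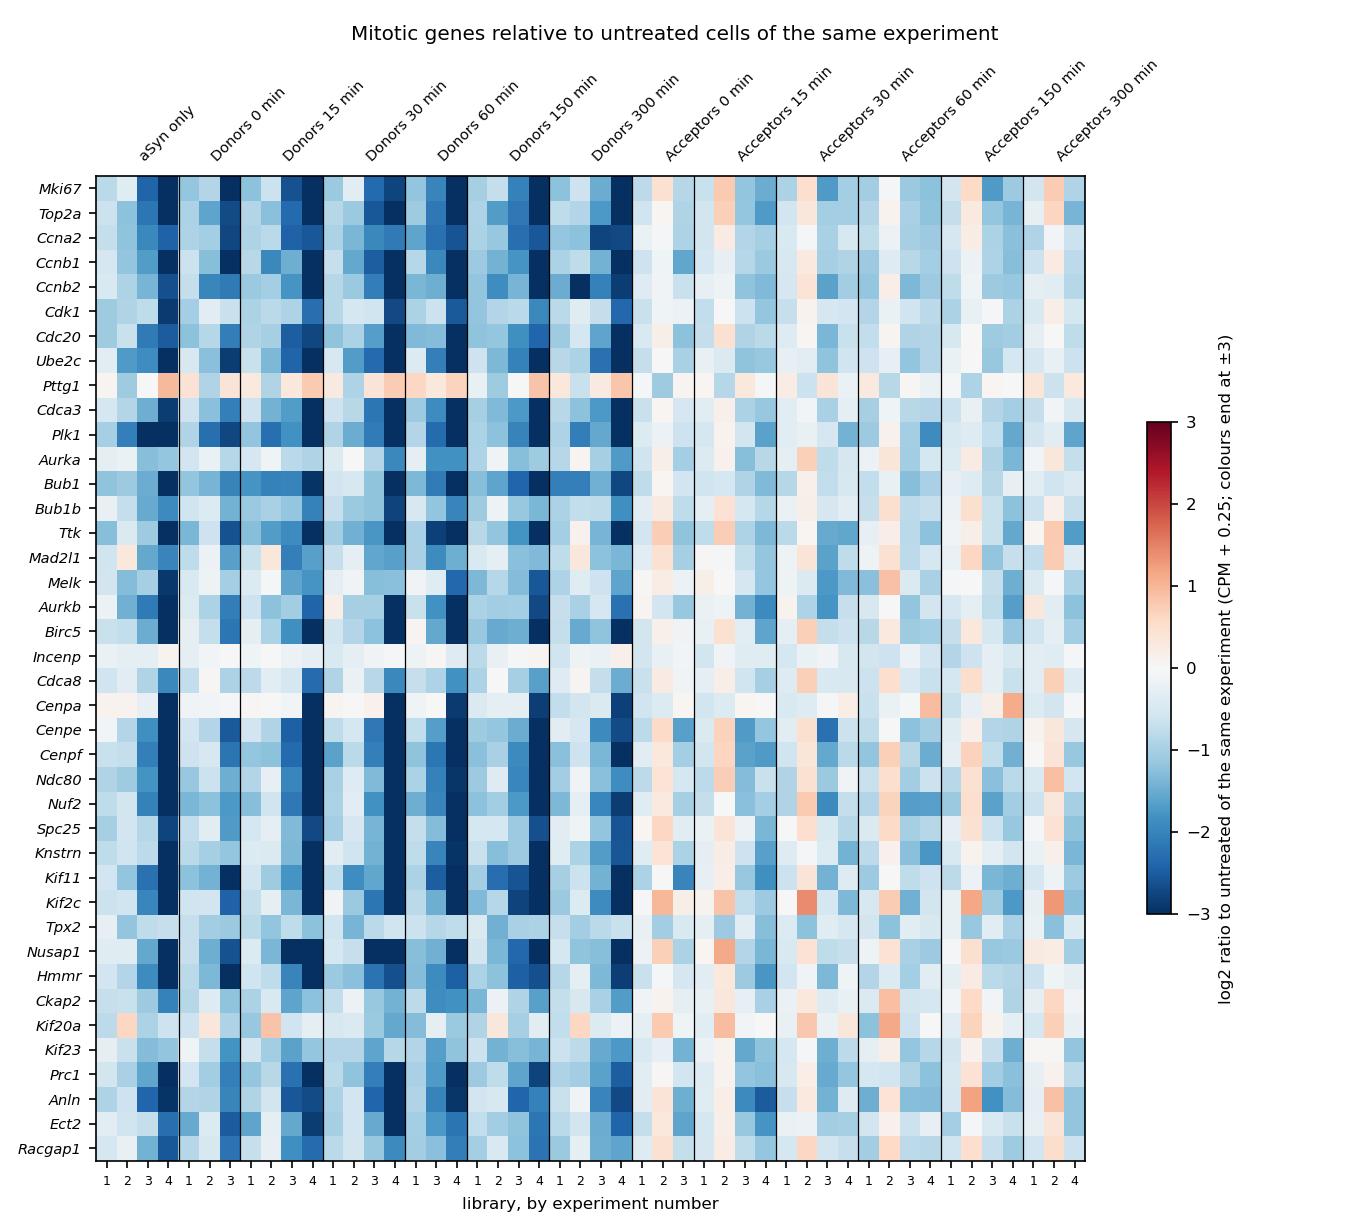
Log2 ratio to untreated cells of the same experiment (CPM + 0.25, colours end at ±3) for 40 mitotic genes (rows) in 48 libraries (columns, grouped by condition and ordered by experiment). Donor and aSyn_Donor columns are mostly blue, darkest in experiment 4. Acceptor columns are mostly red in experiment 2 and mostly blue in experiments 1, 3 and 4. The Pttg1 row is blue in experiment 2 and red in aSyn_Donor cells of experiment 4, and the Incenp row is pale in aSyn_Donor columns.

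Levels of the 40 genes depended on the experiment at least as much as on the group. The experiment accounted for a median of 44.9% of a member's variance in log2 CPM and the group for 33.0%. Over all tested genes the medians were 33.9% for the experiment and 24.95% for the group. With 14 groups and 4 experiments, the share that arises by chance alone is larger for the group. The group's share is therefore the more inflated, and its 33.0% is better read beside 24.95% than beside 44.9%. For 32 members the experiment's share was the larger. Untreated cells were highest in experiment 1 for 32 members and in experiment 4 for 6. The untreated group had the highest mean for 34 members, and the lowest mean belonged to aSyn_Donor cells for 3 and to acceptors of 150 min for 2, and otherwise to a donor group. The matching shares of all tested genes were not computed. Passage numbers are 3 in experiment 1, 1 in experiment 2 and 2 in experiments 3 and 4, so passage and experiment cannot be told apart.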

How the data were processed

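Raw read counts per gene symbol were deposited by the authors for 54 libraries, per the file headers. A table of normalized signal that the authors made with DESeq2, per the file headers, was also deposited, and 100% of its values equalled the counts divided by size factors within rounding. It was used for a check of the sums only. Per the labels' protocols, QuantSeq FWD libraries, which read the 3′ end of polyadenylated RNA, were sequenced as single reads. Per the submitters' processing notes, STAR, Partek, DESeq2 and the mm10 genome were used. Versions, the annotation, the counting program and its use of strand are not given in the sources used here. No molecular identifiers are stated, so low counts carry counting error only as far as reads are independent.

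Groups come from the group label. Untreated libraries with the same number (chi-square per degree of freedom 10.3 and 12.1, against at least 24.2 for other pairs) were summed, which left 52 units. Counts were fitted with edgeR 4.0.16 in R 4.3.3: TMM normalization, filterByExpr with a minimum count of 10, 14 group means, quasi-likelihood test, Benjamini-Hochberg adjustment over 13169 genes, 19 comparisons and 3 F tests over time. The replicate number, shared across groups in the labels, was the block of a further fit of each comparison. The deviations of same-numbered libraries from their group means correlated in every pair (lowest correlation 0.199, means 0.339 to 0.593 by comparison), so the numbers pair the samples and blocked values stand beside the others. DESeq2 1.42.0, other scaling, no filter, only the groups compared, unsummed untreated libraries, no Rn45s and each experiment left out were alternatives. Only the fits with an experiment left out were also made with the block. CPM came from edgeR. The fits were checked on simulated data. Gene positions are from GENCODE M21 and promoters from RefSeq, both GRCm38, the build called mm10. Promoters of Aurkb, Tpx2, Kif20a, Ccna2 and Incenp were not used here.

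The members and lists were chosen with earlier results of these data known. In the comparison of aSyn_Donor with untreated cells, 24 members set by role were described by library. Elsewhere the members named are those called, at most 10 by smallest p, and the highest and lowest estimates. From each related list Foxm1, Mybl2, Wee1 and Cdkn1a and at most 6 called genes by smallest blocked p were named, and from the list of CDK inhibitors and G1 cyclins all those called, after their values were seen. Other members given with values (Bub1, Mad2l1, Melk, Cdca3, Cdca8, Nuf2, Spc25 and Kif20a in the first comparison) were chosen after their values were seen.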

Additional observations from a re-analysis of the deposited data

Results flagged for a closer look

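Single libraries lay far from the other 3 of their group, by the ratio of the gap to the group's range, in 14 of 90 sets of 4 values examined. Chance gives about 1 in 20 for a single set. The sets share libraries, genes that vary together and sums of those genes, so the count cannot show an excess over chance. In aSyn_Donor cells it was experiment 1, on the high side, each time. There Mki67 stood at 40.97 CPM (others 4.80 to 8.17), Top2a at 60.05 (5.06 to 11.1), Ccna2 at 24.98 (5.69 to 8.19) and Ccnb2 at 20.34 (2.27 to 4.45). Plk1 stood at 13.56 CPM (1.66 to 2.07), Aurka at 13.19 (4.89 to 5.09) and Bub1b at 13.71 (2.10 to 3.98). Cenpe stood at 41.92 CPM (2.44 to 8.81), Cenpf at 13.48 (1.83 to 3.82) and Hmmr at 10.61 (0.873 to 2.49). The summed level of the 40 genes in that library was 854.4 CPM against 303.9 to 369.0 CPM. Experiment 1 also stood apart in the sum of acceptors at 150 min (853.5 CPM against 521.8 to 539.5) and of donors at 150 min (662.7 CPM against 313.6 to 361.1). In untreated cells Pttg1 of experiment 2 stood at 243.7 CPM against 52.7 to 79.8.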

How the results depend on the processing

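The largest change came from the pairing: with the experiment as a block, 36 members were called between aSyn_Donor and untreated cells against 0 without it. The block also gave 1, 1, 2 and 2 calls in acceptors at 15, 30, 60 and 150 min and 1, 12, 17, 5, 7 and 3 calls between donors and acceptors at 0 to 300 min, against 0. It changed no call in donors against aSyn_Donor cells or over time. DESeq2 and the fit of unsummed untreated libraries each called 1 member in aSyn_Donor cells. Other scaling, no filter, only the groups compared and leaving out Rn45s left every count at 0. Without the block, leaving out an experiment gave 0 to 9 calls in aSyn_Donor cells, 0 to 1 between donors and acceptors at 15 min, 0 to 2 at 30 min and 0 to 1 at 300 min. With it, the ranges were 19 to 35 in aSyn_Donor cells and 0 to 1 in donors at 300 min against aSyn_Donor cells. In acceptors against untreated cells they were 0 to 1 at 0 min, 0 to 1 at 15 min, 0 to 1 at 30 min, 0 to 3 at 60 min and 1 to 2 at 150 min. Between donors and acceptors they were 0 to 16, 2 to 12, 4 to 17, 0 to 5, 0 to 8 and 0 to 1 at the 6 times. The cause was not tested. Over experiments left out, the log2 fold change of Pttg1 in aSyn_Donor cells ran from -0.52 to 0.37 (-0.40 to 0.41 with the block) and that of Cenpa from -0.73 to 0.049 (-0.83 to 0.023 with the block). Pttg1 was above 0 without experiment 2 and Cenpa without experiment 4. Promoter shares over the bases before the start were 34.3% for the CHR and 31.4% for both motifs. In aSyn_Donor cells of experiment 4, Aurkb and Kif2c rested on 2 counts and Kif11 on 3, so their differences there are imprecise.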
